A study of Homo sapiens with 6 samples.

Results

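The kallikrein-related peptidase genes KLK5, KLK6, KLK7, KLK8, KLK9, KLK10, KLK11, KLK12, KLK13 and KLK14 are described here in HCT116 cells, an established human colorectal cancer line, with and without CSE. These 10 genes were taken by name from the 20263 genes of the deposited table, and all 10 had a line in it. The family was selected on its TPM in these same CSE and WT samples, so for its members that contrast is a description and carries no test. mRNA sequencing was done on 6 samples, of which 3 were HCT116 labelled WT and 3 were HCT116 labelled as CSE treated. CSE is not spelled out in the labels and is read here as cigarette smoke extract, because the series title names smoking. The labels give no CSE dose, no duration and no vehicle, and they do not name separate cultures for the replicates. All values rest on this 1 line.

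Kallikrein-related peptidases are secreted serine proteases with the fold of trypsin. They are made as inactive precursors that lose a short propeptide, and in the epidermis several of them switch each other on in a cascade that ends with the cleavage of the junctions between shedding cells. KLK5 starts that cascade, KLK7 and KLK14 act in it, and inhibitors of the SPINK and serpin families hold it in check. Several kallikreins also cleave protease-activated receptors on the cell surface. In the colon these genes are best known from tumours, where KLK6 and KLK10 are often studied as markers.

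On GRCh38 the 10 genes lie side by side on chromosome 19, all on the minus strand, over 140.9 kb (GENCODE 29 positions). In the order of the chromosome they start with KLK5 (ENSG00000167754, 50943303 to 50953093) and KLK6 (ENSG00000167755, 50958631 to 50969673). KLK7 (ENSG00000169035, 50976482 to 50984099) and KLK8 (ENSG00000129455, 50996007 to 51002711) follow. KLK9 (ENSG00000213022, 51003111 to 51009634) lies 0.4 kb from KLK8, and KLK10 (ENSG00000129451, 51012739 to 51020175) comes next. KLK11 (ENSG00000167757, 51022216 to 51028039) and KLK12 (ENSG00000186474, 51029092 to 51035230) are 1.05 kb apart. KLK13 (ENSG00000167759, 51056206 to 51065114) and KLK14 (ENSG00000129437, 51077495 to 51084245) close the row. Each is a protein-coding gene. The annotation places 4 antisense genes in the span, which overlap 7 of the 10 genes, and none of the 4 has a line in the table analysed. No label states the strandedness of the libraries, so reads of a kallikrein gene and of an antisense partner may not have been separated.

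No stretch of 50 bases of any of the 10 genes' GENCODE 29 transcripts occurred in a transcript of another kallikrein gene, KLK1 to KLK4 and KLK15 included. The other gene compared in this way was ENSG00000269741, which spans KLK8 and KLK9 and holds 34.1% of the distinct 50-base stretches of KLK8 and 87.9% of those of KLK9. It was listed at 0.24, 0.05 and 0.1 TPM in WT and at 0, 0 and 0.03 in CSE. How reads of the shared stretches were assigned is not known, so KLK9 and part of the KLK8 level are uncertain.

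Stretches around transcript starts show how differently composed these neighbours are. RefSeq promoter windows on GRCh38.p14, from 250 bases before to 50 bases after a transcript start, matched 9 of the 10 genes (all but KLK8), with 16 windows in all because KLK7, KLK10, KLK11, KLK13 and KLK14 have several starts. The first window listed is printed for KLK5, KLK11 and KLK14, the tested genes lowest in CSE relative to WT. Those of KLK11 and KLK14, and both KLK10 windows, lie wholly inside the gene spans given above, not before them. First-listed windows are also printed for KLK6 (12.7% lower in CSE), KLK7 and KLK13, which differed less, but not for KLK10, which lay between. They run 5′ to 3′ along the gene, with every CG dinucleotide, the usual site of DNA methylation, in capitals. Methylation was not measured.
KLK5: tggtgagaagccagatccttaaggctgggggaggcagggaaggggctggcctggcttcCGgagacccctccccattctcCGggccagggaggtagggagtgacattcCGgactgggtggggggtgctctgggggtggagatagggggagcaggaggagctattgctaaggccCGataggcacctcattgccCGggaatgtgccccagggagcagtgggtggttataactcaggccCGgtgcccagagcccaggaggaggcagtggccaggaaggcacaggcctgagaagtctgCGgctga
KLK11: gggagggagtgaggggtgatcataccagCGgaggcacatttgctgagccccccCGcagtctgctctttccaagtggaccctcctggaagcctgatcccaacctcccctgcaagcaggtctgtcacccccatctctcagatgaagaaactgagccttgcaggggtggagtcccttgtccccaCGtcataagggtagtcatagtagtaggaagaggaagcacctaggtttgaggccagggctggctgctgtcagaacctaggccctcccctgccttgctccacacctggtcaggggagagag
KLK14: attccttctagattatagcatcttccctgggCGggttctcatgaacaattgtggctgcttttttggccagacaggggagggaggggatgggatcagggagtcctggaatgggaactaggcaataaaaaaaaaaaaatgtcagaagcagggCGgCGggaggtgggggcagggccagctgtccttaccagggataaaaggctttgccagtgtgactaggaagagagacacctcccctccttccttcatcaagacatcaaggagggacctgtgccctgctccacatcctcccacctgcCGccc
KLK6: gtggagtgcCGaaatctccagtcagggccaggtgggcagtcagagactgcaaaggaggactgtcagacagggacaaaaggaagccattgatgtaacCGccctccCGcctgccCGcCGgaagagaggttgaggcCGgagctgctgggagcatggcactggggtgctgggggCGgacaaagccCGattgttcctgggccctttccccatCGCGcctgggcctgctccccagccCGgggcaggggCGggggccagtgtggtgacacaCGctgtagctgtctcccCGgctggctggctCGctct
KLK7: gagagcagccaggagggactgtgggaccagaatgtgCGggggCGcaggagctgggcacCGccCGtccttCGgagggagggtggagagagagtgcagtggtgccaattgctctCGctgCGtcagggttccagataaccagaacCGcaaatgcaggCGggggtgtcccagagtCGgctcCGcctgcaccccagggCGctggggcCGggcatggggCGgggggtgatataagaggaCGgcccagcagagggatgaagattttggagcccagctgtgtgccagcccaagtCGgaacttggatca
KLK13: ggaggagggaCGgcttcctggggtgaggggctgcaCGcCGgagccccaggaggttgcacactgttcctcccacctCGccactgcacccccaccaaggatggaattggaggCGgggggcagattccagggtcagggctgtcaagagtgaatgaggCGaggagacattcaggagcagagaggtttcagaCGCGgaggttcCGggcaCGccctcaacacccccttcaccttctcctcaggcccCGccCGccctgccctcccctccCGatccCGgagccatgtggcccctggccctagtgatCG
The windows lie at chr19:50952989-50953288 (KLK5), chr19:51027597-51027896 (KLK11), chr19:51082807-51083106 (KLK14), chr19:50969542-50969841 (KLK6), chr19:50983868-50984167 (KLK7) and chr19:51065043-51065342 (KLK13), all on the minus strand.

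In these windows KLK5 held 7 CG dinucleotides, KLK11 held 3 and KLK14 held 4, while KLK6 held 15, KLK7 held 16 and KLK13 held 15. The observed over expected ratio of CG, which corrects for base composition, was 0.242 for KLK5, 0.114 for KLK11 and 0.182 for KLK14. It was 0.46 for KLK6, 0.536 for KLK7 and 0.45 for KLK13. KLK10 lay between them at 0.353 and 0.379 in its pair of windows, and KLK9 was at 0.221 and KLK12 at 0.308. The median over all 35116 windows of this length was 0.579, with quartiles of 0.229 and 0.856, so all 6 printed windows were below the median. Other starts gave 0.305 for KLK11 (11 CG dinucleotides), 0.111 and 0.136 for KLK14, 0.528 and 0.475 for KLK7, and 0.614 for KLK13. The CG values are properties of a few windows of 1 gene cluster, chosen by the levels of their genes, and are given as a description. Because that choice used the CSE against WT differences, no link between CG content and the differences is read from them. A link with the level of the genes was not tested.

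Motifs were searched on both strands by their letters. The AP-1 motif TGANTCA was in 0 of the 16 kallikrein windows, against 7.71% of all windows, and the TATA box letters TATAAA were also in 0 of 16, against 11.5%. The core letters bound by the aryl hydrocarbon receptor, GCGTG, were in 4 windows, belonging to KLK6, KLK12 and KLK13, against 36.5% of all windows. The antioxidant element TGACNNNGC was in 5 windows, belonging to KLK7, KLK12 and KLK13, against 13.3%. The GC box GGGCGG was in 10 windows of 6 genes, against 15786 of all 35116 windows. None of the 5 motifs was in the KLK5 window, either KLK10 window, the printed KLK11 window or 1 of the KLK14 windows. The windows of KLK7, of KLK10 and of KLK13 overlap, as do some of KLK14, so a site can be counted more than once. The same TGACNNNGC site was counted in every KLK7 window, and the same GCGTG site in both KLK13 windows. The window counts are therefore not independent, and no enrichment is read from them. A match is only a run of letters, and its absence says nothing about sites elsewhere.

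WT and CSE libraries separated along the leading principal component (76.9% of the variance). On the next one (9.26%) CSE replicate 3 stood apart at -9.31, against 4.35 and 5.70 for the other CSE samples. TPM carries no sequencing depth, which is therefore unknown. Between 12640 and 12778 genes reached 1 TPM in a library. Mitochondrially encoded genes held 27.0% to 30.2% of the TPM in WT and 25.5% to 25.8% in CSE. Of 9 epithelial and colorectal markers 7 reached 1 TPM, and their summed level was 5087 to 5318 in WT and 5312 to 5618 in CSE. The intestinal marker VIL1 stayed at or under 0.05 TPM and CEACAM5 at or under 0.15, so the label is carried by EPCAM, the simple keratins, CDH1, CDX2 and KRT20. Of 14 markers of other cell types 3 reached 1 TPM in any library (COL1A1, ACTA2 and CD14), with a summed level of 65.4 to 69.6 in WT and 57.2 to 59.2 in CSE. DCN was at 0 in all 6 libraries and PTPRC at or under 0.03. The part of these markers in the kallikrein values was not tested. In bulk RNA, fewer cells expressing a gene and less RNA per cell cannot be told apart.

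The family was far from uniform in level and in its difference between the groups. Of the 10 genes, 5 were above 20 TPM in every library (KLK5, KLK6, KLK7, KLK8 and KLK10), 3 stayed under 4 TPM (KLK11, KLK13 and KLK14) and KLK9 and KLK12 were near 0. KLK5 and KLK11 were the most reduced in CSE, KLK14, KLK10 and KLK6 less so, and KLK7, KLK8 and KLK13 had overlapping groups. All levels are in TPM, which is corrected for transcript length and allows genes to be compared. Differences subtract the WT mean of log2(TPM + 1) from that of CSE, a scale on which changes of low genes come out too small, with standard errors (SE) from the limma fit across the 12793 genes that reached 1 TPM in 3 or more libraries.

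**Figure D1:**
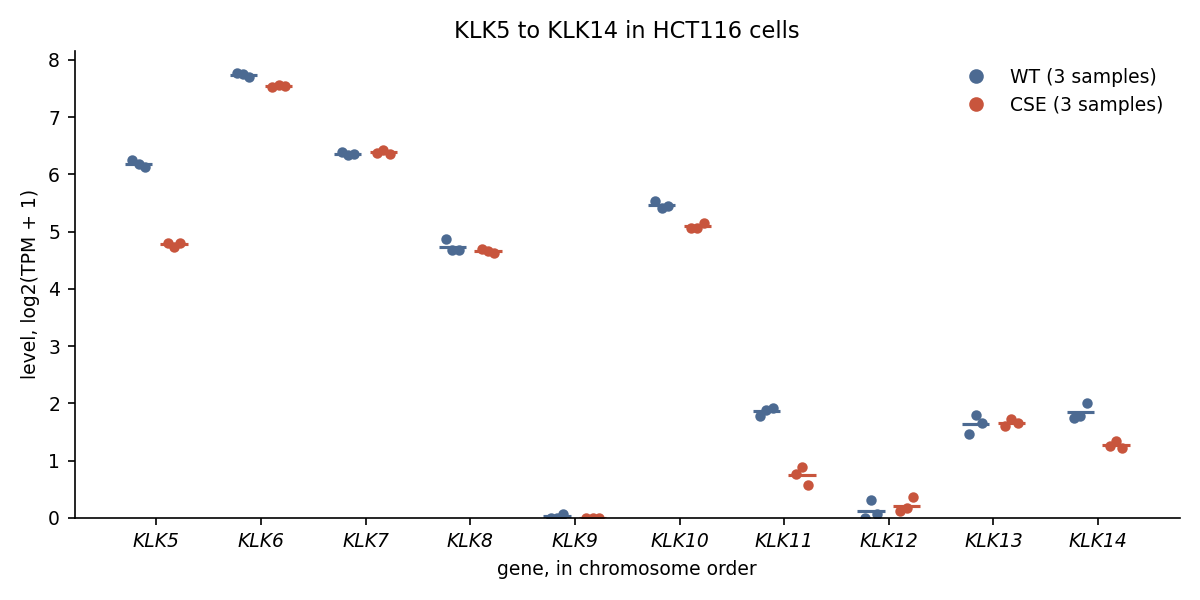
Level of each kallikrein gene, as log2(TPM + 1), in gene order along chromosome 19. Points are single samples (blue WT, red CSE) and lines are group means. KLK6 is highest in every sample, KLK5 drops from near KLK7 to near KLK8, and KLK9 and KLK12 sit at the axis.

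KLK5, the trypsin-like enzyme that starts the epidermal cascade, was at 74.8, 71.3 and 69.0 TPM in the 3 WT samples and at 26.8, 25.5 and 26.9 in the 3 CSE samples. All CSE samples were far below all WT samples, and the CSE values lay close together. The means were 71.7 ± 2.94 and 26.4 ± 0.779 TPM (SD, n = 3 each), 2.71-fold lower in CSE, with a log2 difference of -1.41 (SE 0.0468). Its window printed above held 7 CG dinucleotides, given as a description only.

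KLK14, another trypsin-like enzyme of the epidermis and an activator of protease-activated receptor 2, was low throughout. It was at 2.33, 2.43 and 3.02 TPM in WT and at 1.38, 1.54 and 1.32 in CSE. The groups did not overlap, although WT replicate 3 stood above the other WT samples. The means were 2.59 ± 0.373 and 1.41 ± 0.114 TPM, 1.84-fold lower in CSE, with a log2 difference of -0.57 (SE 0.0976), or -0.825 with a pseudocount of 0.1.

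KLK7, the chymotrypsin-like partner of KLK5 in the skin, behaved otherwise. It was at 83.1, 79.8 and 81.2 TPM in WT and at 81.5, 85.5 and 81.3 in CSE. All 6 values lay within a narrow band and the groups overlapped. The means were 81.4 ± 1.64 and 82.7 ± 2.35 TPM, with a log2 difference of 0.02 (SE 0.0413, 95% interval -0.06 to 0.11). The sign of this small difference turned without the mitochondrially encoded genes (-0.034) and under quantile normalization (-0.012). KLK5 and KLK7 were thus close in WT, with a KLK7 to KLK5 ratio of 1.14 ± 0.0358, and far apart in CSE, at 3.14 ± 0.184.

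KLK8, known as neuropsin for its part in the brain, lies next to KLK7 and also had overlapping groups. It was at 28.2, 24.5 and 24.5 TPM in WT and at 25.1, 24.4 and 23.7 in CSE. WT replicate 1 was above the rest, and without it the log2 difference was -0.0069 in place of -0.07 (SE 0.0565, 95% interval -0.19 to 0.05). With mitochondrially encoded genes left out it was -0.129 and was called lower. The means were 25.7 ± 2.13 and 24.4 ± 0.660 TPM.

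KLK6, or neurosin, a trypsin-like enzyme abundant in the central nervous system and raised in many carcinomas, was the most abundant kallikrein. It was at 217, 214 and 207 TPM in WT and at 183, 188 and 186 in CSE. Every CSE sample was under every WT sample, by a small margin relative to the level. The means were 213 ± 5.47 and 186 ± 2.30 TPM, 1.15-fold lower in CSE, with a log2 difference of -0.19 (SE 0.0375). Its printed window held 15 CG dinucleotides, given as a description only.

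KLK10, first described as a gene of normal epithelial cells that is lost in breast cancer cells, was at 45.1, 41.7 and 42.7 TPM in WT. In CSE it was at 32.5, 32.5 and 34.7. The groups did not overlap. The means were 43.1 ± 1.74 and 33.2 ± 1.245 TPM, 1.30-fold lower in CSE, with a log2 difference of -0.37 (SE 0.0483).

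KLK11, a trypsin-like enzyme of many glandular tissues, had the largest relative difference of the family. It was at 2.43, 2.67 and 2.79 TPM in WT and at 0.69, 0.85 and 0.49 in CSE. No CSE sample reached 1 TPM, so the gene entered the fit through its WT values alone. The means were 2.63 ± 0.183 and 0.677 ± 0.180 TPM, a 3.89-fold difference in TPM. On the log2(TPM + 1) scale the difference was -1.12 (SE 0.104), and with a pseudocount of 0.1 it was -1.84.

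KLK13, a trypsin-like enzyme that can cleave extracellular matrix, was at 1.77, 2.46 and 2.14 TPM in WT and at 2.04, 2.32 and 2.14 in CSE. The CSE values lay inside the WT range. The means were 2.12 ± 0.345 and 2.17 ± 0.142 TPM, with a log2 difference of 0.02 (SE 0.0972, 95% interval -0.18 to 0.23) that changed sign with the sample left out (-0.059 without WT replicate 1, 0.102 without WT replicate 2) and was -0.016 with mitochondrially encoded genes left out. KLK13 and KLK11 had similar levels in WT, with a KLK13 to KLK11 ratio of 0.806 ± 0.102, while in CSE the ratio was 3.35 ± 0.887.

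KLK12 was listed at 0, 0.24 and 0.05 TPM in WT and at 0.08, 0.13 and 0.28 in CSE. KLK9 was listed at 0 in 5 samples and at 0.05 in WT replicate 3. Neither reached 1 TPM anywhere, neither was tested, and no fold is given for them.

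In the fit across all genes 5 of the 8 tested kallikreins were called lower in CSE and 0 higher, where 50.1% of all genes tested were called at a limma adjusted p under 0.05, 25.6% lower and 24.5% higher. The 5 were KLK5, KLK6, KLK10, KLK11 and KLK14, and in the same 5 all CSE values lay under all WT values, as they did for 29.9% of all genes tested. Since the genes were proposed with this contrast known, and KLK11 passed the filter only through WT, nothing is read from these counts. The split of calls over all genes depends on scaling: the part that was higher in CSE was 48.9% on the deposited scale and 34.3% with mitochondrially encoded genes left out.

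Leaving out CSE replicate 3, the library that stood apart, changed no call among the kallikreins. Without it the log2 differences were -1.42 for KLK5, -0.195 for KLK6, -0.398 for KLK10, -1.04 for KLK11 and -0.542 for KLK14. Those of KLK7, KLK8 and KLK13 were 0.036, -0.053 and 0.031. These values are a description, as the genes were selected on this contrast.

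Levels put the genes in a different order in each group. In WT the order was KLK6, KLK7, KLK5, KLK10, KLK8, KLK11, KLK14, KLK13, KLK12 and KLK9. The values of KLK11 overlapped with those of KLK14, those of KLK14 with those of KLK13, and those of KLK12 with those of KLK9, while all other neighbours in this order were separated. In CSE the order was KLK6, KLK7, KLK10, KLK5, KLK8, KLK13, KLK14, KLK11, KLK12 and KLK9, and no neighbours overlapped. KLK5 moved from the third place to the fourth, just above KLK8, and KLK11 from the sixth to the eighth.

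Summed over the 10 genes, kallikrein transcripts made up 455, 439 and 432 TPM in WT and 353, 361 and 357 TPM in CSE. The means were 442 ± 11.8 and 357 ± 3.63 TPM, or 19.3% lower in CSE. KLK5 accounted for 53.1% of this difference, KLK6 for 31.7% and KLK10 for 11.7%. Without KLK5 the sum was 370 ± 8.85 TPM in WT and 330 ± 4.32 TPM in CSE, 10.8% lower. The low genes KLK11 and KLK14, though more reduced in relative terms than KLK6, added 2.29% and 1.39%.

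The make-up of the sum shifted accordingly. KLK5 held 16.2% ± 0.238 of the kallikrein TPM in WT and 7.41% ± 0.284 in CSE. KLK6 went from 48.1% ± 0.546 to 52.0% ± 0.132, and KLK7 from 18.4% ± 0.333 to 23.2% ± 0.466. KLK8 had 5.81% and 6.83%, and KLK10 kept a similar share, 9.76% ± 0.232 and 9.31% ± 0.364. These are shares of a total that itself differed, so the larger shares of KLK6 and KLK7 do not mean more of their transcripts.

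**Figure D2:**
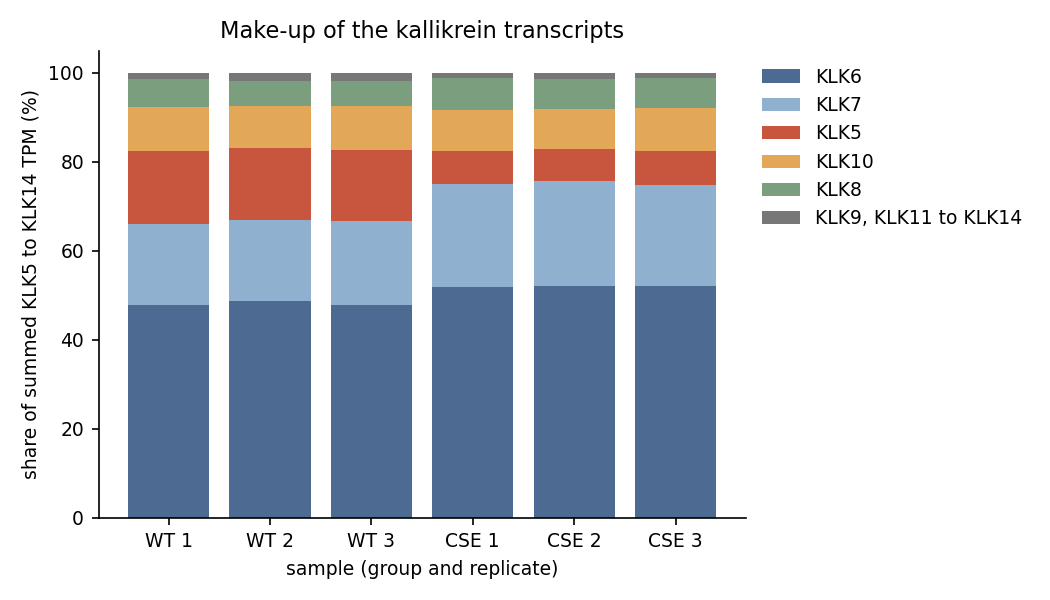
Share of the summed kallikrein TPM held by each abundant gene, with KLK9 and KLK11 to KLK14 joined (percent, bars stacked to the whole), in the 3 WT and 3 CSE samples. The KLK5 segment is 16.0% to 16.4% in WT and 7.08% to 7.59% in CSE, while KLK6 and KLK7 take larger shares in CSE.

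Genes next to each other on the chromosome had unlike differences. KLK5, which differed by -1.41, lies 5.54 kb from KLK6, which differed by -0.19, and KLK11, at -1.12, lies between KLK10 (-0.37) and the nearly silent KLK12. KLK13 and KLK14 are 12.4 kb apart and differed by 0.02 and -0.57. The KLK7 and KLK8 pair, 11.9 kb apart, kept a similar ratio of 3.17 ± 0.198 in WT and 3.40 ± 0.129 in CSE.

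**Figure D3:**
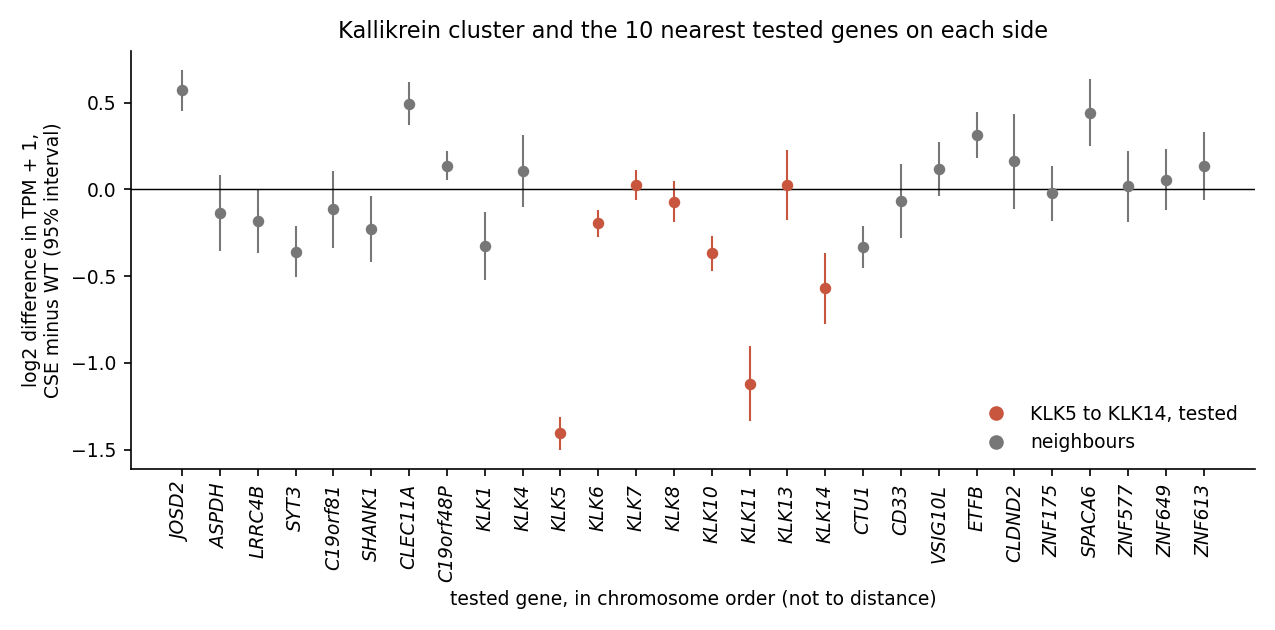
Log2 difference of TPM + 1, CSE minus WT, with 95% intervals, for the 8 tested kallikreins of the cluster (red) and the 10 nearest tested genes on each side (grey), in chromosome order. Neighbour values run from -0.36 to 0.57. KLK5 (-1.41), KLK11 (-1.12) and KLK14 (-0.57) lie below them, and KLK10 (-0.37) is about level with the lowest. The kallikreins were selected on this contrast and the neighbours were not, so the comparison is only a description.

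The other kallikrein genes were low or near 0. KLK1, the tissue kallikrein that releases kinins, fell from 2.75 ± 0.199 TPM in WT to 2.00 ± 0.280 in CSE (log2 fold change -0.33 with SE 0.0934, and limma adjusted p = 0.00611). KLK4, the enamel kallikrein and the nearest tested gene before KLK5, was at 2.12 ± 0.206 and 2.36 ± 0.398 TPM (0.11, SE 0.0993, limma adjusted p = 0.396). KLK15 was at or under 0.24 TPM, and the prostate genes KLK2 and KLK3 at or under 0.08 and 0.03. KLKB1, the plasma kallikrein gene on chromosome 4, was at or under 0.5 TPM.

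The 20 nearest tested neighbours, which reach 437 kb before KLK5 and 865 kb after KLK14 and include KLK1 and KLK4, moved in both directions. Of them 5 were called higher and 4 lower, where 24.5% and 25.6% of all genes tested were, with a median log2 fold change of 0.036, against -0.0039 over all genes tested. JOSD2, a deubiquitinase gene, rose from 26.2 to 39.3 TPM (0.57, SE 0.0572, limma adjusted p = 4.36e-08). CLEC11A, a secreted lectin and growth factor gene, rose from 8.88 to 12.9 TPM (0.49), and SPACA6 from 2.19 to 3.32 TPM (0.44). SYT3, a synaptotagmin gene, fell from 7.38 to 5.53 TPM (-0.36), and CTU1, a tRNA thiolation enzyme gene and the first tested gene after KLK14, fell from 16.97 to 13.3 TPM (-0.33).

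The counts and medians of the gene lists that follow stand beside a median of -0.0039 and 25.6% lower and 24.5% higher over all genes tested, and the lists were not tested as sets. Genes whose products inhibit kallikreins and related proteases came first. Of 27 on the list 12 were tested, of which 7 fell, 2 rose and 3 did not pass, with a median log2 fold change of -0.23. SLPI, which encodes a secreted inhibitor of leukocyte elastase that also inhibits KLK7, went from 33.8 to 9.10 TPM (-1.80, SE 0.0846, limma adjusted p = 2.86e-13). SERPINA5, the protein C inhibitor, fell from 9.14 to 5.43 TPM (-0.66) and SERPINA1, alpha-1-antitrypsin, from 10.7 to 6.52 TPM (-0.64). Among the others that fell, CST6 encodes an inhibitor of cysteine proteases and SERPINB5 (maspin) a serpin that does not inhibit proteases. The 2 that rose were SERPINF2, the plasmin inhibitor gene (0.43), and SPINT1, an inhibitor of matriptase (0.15). With mitochondrially encoded genes left out SPINT1 was at 0.0896 and not called (limma adjusted p = 0.0502). The list then had 1 higher and 8 lower, where all genes had 2343 higher and 4489 lower. A further gene of the list was therefore called lower in that setting. SPINK5, the main epidermal inhibitor of KLK5, KLK7 and KLK14, was at or under 0.11 TPM, SPINK6 was listed at 0 in all 6 samples, and SPINK9 was at or under 0.13.

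Proteases and partners that can activate kallikreins formed the next list. Of 16 listed 9 were tested, with 1 higher, 3 lower and 5 not called (median 0.0049). The plasminogen activator genes PLAU and PLAT fell: PLAU from 108 TPM in WT to 84.3 in CSE (-0.35, limma adjusted p = 2.86e-07), PLAT from 26.7 to 19.9 TPM (-0.41). The 1 gene that rose, PLAUR, encodes the urokinase receptor and no protease, at 40.5 TPM in WT and 56.2 in CSE (0.46). The matriptase gene ST14 was abundant at 165 to 174 TPM and did not pass. Plasminogen itself (PLG) was at or under 0.08 TPM.

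Protease-activated receptors, the signalling targets of several kallikreins, were not called. F2RL1, which encodes receptor 2, was at 282 to 291 TPM in WT and 277 to 291 in CSE, and F2R, receptor 1, at 41.3 to 43.2 and 42.3 to 45.5 TPM. Quantile normalization called F2RL1 lower (-0.080, limma adjusted p = 0.0182). F2RL2 stayed at or under 0.37 TPM and F2RL3 was listed at 0 in every sample.

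Of 22 genes for matrix, adhesion and other proteins that kallikreins are able to cleave 14 were tested, with 3 higher and 8 lower (median -0.16). The counts include genes not mainly of matrix or adhesion, such as GRN among the higher and APP among the lower. L1CAM, a neural adhesion molecule gene, fell from 41.9 TPM in WT to 24.2 in CSE (-0.77, limma adjusted p = 5.78e-11), and LAMA3, a basement membrane laminin gene, from 6.47 to 3.74 TPM (-0.66). The desmosomal cadherin genes DSC2 (0.53) and DSG2 (0.24) rose. The epidermal cadherins DSG1 and DSC1, classic substrates of the skin cascade, did not pass the filter on low values.

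Of 47 other genes of trypsin-fold proteases and their partners 23 were tested, with 2 higher and 7 lower (median -0.070). TMPRSS9 fell from 3.10 TPM in WT to 1.54 in CSE (-0.68, limma adjusted p = 5.39e-06) and TMPRSS6, matriptase-2, from 2.93 to 1.75 TPM (-0.51). PRSS22, which encodes a tryptase of airway epithelium, rose from 36.8 to 52.6 TPM (0.50). F3, which encodes tissue factor, the cofactor of a coagulation protease, fell by 0.49 on the log2 scale.

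Genes of squamous differentiation, the setting in which KLK5, KLK7 and KLK14 are best known, passed the filter in 17 of 41 cases, of which 9 fell and 3 rose (median -0.22). At a mean TPM of at least 5 the split was even, with 3 lower and 3 higher, where all genes had 2811 lower and 2889 higher. KRT17, a stress keratin gene, fell from 5.30 TPM in WT to 1.67 in CSE (-1.24, limma adjusted p = 3.61e-09). SPRR2D and SPRR1A, cornified envelope genes, went from 2.91 to 0.327 TPM (-1.56, or -2.85 with a pseudocount of 0.1) and from 1.17 to 0.130 TPM (-0.95, or -2.65). Both, like SBSN, another gene of this list that fell, passed the filter through WT alone. CNFN, another cornified envelope gene, rose from 10.8 to 19.1 TPM (0.79). The envelope gene LORICRIN was listed at 0 in all 6 samples and IVL at or under 0.13 TPM.

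Nuclear receptors through which steroid, retinoid and thyroid hormones act on target genes were the last list. Of 15 listed 9 were tested, with 3 higher and 0 lower (median 0.021): the glucocorticoid receptor gene NR3C1 (0.29, limma adjusted p = 0.00117), THRA (0.28) and RARA (0.26). Without the mitochondrially encoded genes RARG was called lower as well (-0.102, limma adjusted p = 0.0382). The genes of the estrogen receptors (ESR1 and ESR2) and the progesterone receptor (PGR) did not pass the filter.

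**Figure D4:**
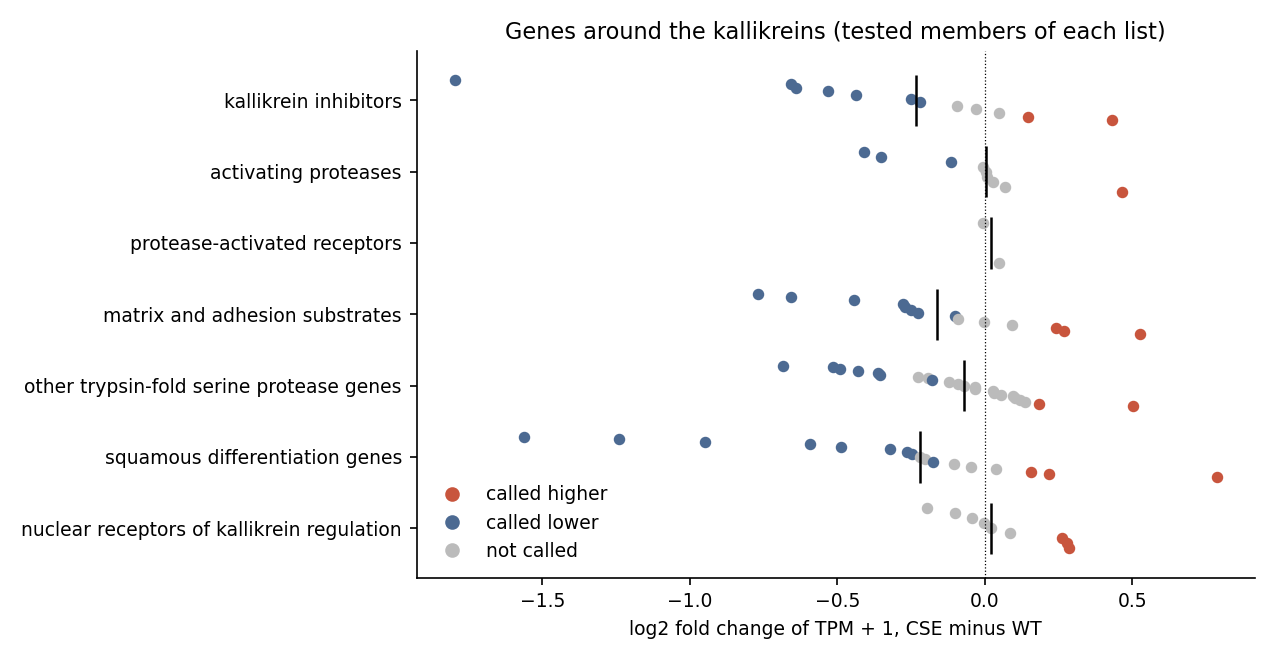
Log2 fold change of TPM + 1, CSE minus WT, for each tested gene of 7 lists around the kallikreins, with black bars at the list medians. Genes called by limma are red (higher) or blue (lower). Inhibitors reach -1.80 (SLPI) and squamous genes -1.56 (SPRR2D), while both protease-activated receptors lie near 0.

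The genes whose levels ran most closely with the summed kallikrein TPM over the 6 samples were OTUD1, FAM220A, STX16, YRDC and MYOM1. Pearson's r on the log2 scale was 0.999 for the first 4 and 0.9985 for MYOM1, given as a description. OTUD1, a deubiquitinase gene, had 17.7 TPM in WT samples and 11.8 in CSE samples on average, and STX16, a gene of vesicle fusion, at 75.8 and 56.1. With 6 samples in 2 separate groups such values mainly follow the groups: 192 tested genes reached an r of 0.99 or more.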

How the data were processed

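The authors deposited 1 table of TPM, transcript abundance corrected for gene length and library total, for 20263 genes in 6 libraries (3 WT, 3 CSE), and 0 sample columns were left unmapped. Per the submitters' processing notes FastQC 0.11.2, Trimmomatic 0.36, HISAT2 2.0, bedtools 2.26.0 and GRCh38 were used, with no roles given; which program and annotation gave the values is not given in the sources used here. Without depth no counting interval was computed, and p-values cover the spread between the samples alone, which the labels do not separate from technical repeats.

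Symbols were matched for 20148 genes. Values were transformed to log2(TPM + 1), and the 12793 genes at 1 TPM or more in 3 or more libraries were fitted with limma 3.58.1 in R 4.3.3 (empirical Bayes with mean-variance trend), with Benjamini-Hochberg adjustment at 0.05. The procedure was tested on simulated data with independent noise and few changed genes. The data differ, with 50.1% of genes tested called, so that test does not cover the call rates here. The kallikrein genes and the gene lists were chosen with earlier results of these data known. Named are all 10 kallikreins, the other kallikrein genes, up to 3 called genes of largest change per list, called neighbours changed 1.25-fold or more, and the 5 genes most correlated with the summed level; genes named beyond this were chosen after their values were seen. Alternatives were 2 other scalings, a pseudocount of 0.1, either no filter or a floor on mean TPM of 5, removal of mitochondrially encoded genes, no variance trend, a replicate block and leaving out each sample. Protein sequences were not used here.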

Additional observations from a re-analysis of the deposited data

How the results depend on the processing

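Across the alternatives run, the log2 difference was -1.47 to -1.37 for KLK5, -0.253 to -0.179 for KLK6 and -0.427 to -0.336 for KLK10. It was -1.84 to -1.04 for KLK11 and -0.825 to -0.487 for KLK14. All 5 stayed lower in CSE and were called in each alternative that tested them. The genes were selected on this contrast in these samples, and KLK11 passed the filter only through WT. The repeated calls are therefore a description and carry no test. KLK8 was called only with mitochondrially encoded genes left out, which made 6 kallikreins lower in place of 5. Over all genes that setting called 4489 lower and 2343 higher, against 3277 and 3130 in the main fit, so nothing is read from the count. The summed TPM of the kallikreins was 22.4% lower in that setting. Leaving out single samples moved that sum between 18.1% and 20.2%. At a mean TPM of at least 5, where fewer genes are tested, 3 kallikreins were called lower. Over all genes that setting called 2811 lower and 2889 higher. It gave 0 calls among the other kallikrein genes, 4 among other trypsin-fold proteases and 6 among squamous genes (3 higher, 3 lower). Quantile normalization called 1 protease-activated receptor. Of 41 other genes named with calls or values and followed through the alternatives, only SPINT1 lost its call (0.0896 without mitochondrially encoded genes), F2RL1 and RARG gained one, and 3 uncalled ones changed sign: F2R (-0.0098 without mitochondrially encoded genes), F2RL1 (0.0052 with median-of-ratios scaling, -0.0216 to 0.0134 leaving out single samples, above 0 without WT replicate 1 or CSE replicate 3) and ST14 (-0.046 with quantile normalization, -0.053 without mitochondrially encoded genes, -0.0126 to 0.0231 leaving out single samples, below 0 without WT replicate 2 or CSE replicate 2). The cause was not tested.

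With the replicate number as a block 6537 genes were called in place of 6407, and 5 kallikreins were lower. Deviations of same-numbered samples correlated at -0.071, 0.015 and -0.088, so the numbers were not taken as pairs. Depth is unknown, which limits what can be said of KLK9 and KLK12, and also of the low genes KLK11, KLK13 and KLK14.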
